A study of Homo sapiens with 4 samples.

Results

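The long non-coding RNAs (lncRNAs) described here are *MALAT1*, *NEAT1*, *KCNQ1OT1*, *TUG1*, *OIP5-AS1*, *H19*, *MEG3*, *UCA1*, *DANCR* and *CYTOR*, a list of 10 well-known nuclear and cytoplasmic transcripts picked by name from the 40205 genes of an RNA-seq series. Of the 10 symbols, 9 had a row of their own, and *CYTOR* was found under its earlier symbol *LINC00152*. RNA was taken from human lung cancer cells 24 h after transfection with a negative control siRNA (NC 1 and NC 2) or an siRNA against circZFR (si-circZFR 1 and si-circZFR 2), a circular RNA spliced from exons of *ZFR*. The libraries were made from total RNA and sequenced on the Ion Proton, and a total of 11040050 to 12816868 reads stood behind each one. The labels name H1299 cells, whereas A549 cells are named in the article and in the series design. A549 is known for loss of *CDKN2A*, which had 0 reads in all 4 libraries. No genotype, allele or agent other than the siRNA is given, and nothing says that the 2 libraries of a group came from separate cultures, so the p-values measure only the spread between these libraries, which may be technical.

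lncRNAs are long transcripts that are held to act mainly without being translated, although the line is not sharp, and GENCODE and RefSeq both type *TUG1* as protein coding. *NEAT1* is the scaffold around which paraspeckles, a kind of nuclear body, are built, and *MALAT1* collects in nuclear speckles, where splicing factors are stored. *KCNQ1OT1*, *H19* and *MEG3* are transcribed from imprinted loci, *OIP5-AS1* (the human form of Cyrano) carries an unusually well paired site for miR-7, and *UCA1*, *DANCR* and *CYTOR* are mostly studied in tumours and progenitor cells.

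*MALAT1* and the long isoform of *NEAT1* share an uncommon 3′ end, which is not polyadenylated, whereas the short isoform of *NEAT1* is polyadenylated. A tRNA-like stretch behind it is cut off, and a U-rich element then folds with a genome-encoded A-rich tail into a triple helix that protects the end. The last 100 bases of both elements are shown as the feature for which these RNAs are known, and the *NEAT1* values below do not report on the long isoform separately. They come from the GENCODE transcripts of GRCh38, plus strand, at chr11:65506017-65506116 for *MALAT1* and chr11:65445441-65445540 for *NEAT1*, and capitals mark the U-rich stretch and the last 6 bases, which both share.
MALAT1: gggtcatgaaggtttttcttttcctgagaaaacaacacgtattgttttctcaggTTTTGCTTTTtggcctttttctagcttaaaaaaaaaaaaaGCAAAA
NEAT1: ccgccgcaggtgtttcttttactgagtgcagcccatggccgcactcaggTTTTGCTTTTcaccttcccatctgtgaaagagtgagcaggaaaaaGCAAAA

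The second sequence feature is the miR-7 site of *OIP5-AS1*, the lncRNA with the smallest p of the list. Its 8881-base GENCODE transcript holds 3 matches to the miR-7 seed (bases 2 to 8). At one of them, in exon 4 at chr15:41300570-41300599 of GRCh38 on the plus strand, a further run of 14 bases pairs with the 3′ part of the miRNA. Capitals mark the seed in the RefSeq mature miR-7-5p, and in the site the paired bases.
hsa-miR-7-5p: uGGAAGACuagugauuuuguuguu
OIP5-AS1: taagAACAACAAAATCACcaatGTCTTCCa

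Library values are given as RPKM (the reads of a gene divided by its length and by the depth of the library), scaled so that the 4 libraries share a trimmed mean. Only genes that reached 1 RPKM in 2 or more libraries were tested, which 13885 genes and 8 of the 10 lncRNAs did. *KCNQ1OT1* and *UCA1* did not. Limma was run on log2(scaled RPKM + 1), so log2FC values understate the change of low genes. A gene was called at FDR (Benjamini-Hochberg over all genes tested) under 0.05 and |log2FC| over 1. Junction reads of circZFR are not in the values, so its silencing could not be checked directly. The row of its host gene *ZFR* had 1437 and 1740 reads in the controls against 284 and 267 in the si-circZFR libraries (log2FC -2.33, standard error, SE, 0.17, FDR = 0.0388 by limma). Circular and linear reads of *ZFR* are not separated in the values, so the groups differ in the *ZFR* row as a whole. The word silenced is used below as a name for the si-circZFR libraries, not as a measure of circZFR. Of 12 markers of blood, endothelial, stromal and liver cells, 6 had no read in any library and none reached 1 scaled RPKM in all 4, with a summed level of 0.624 to 0.903 in NC and 1.45 to 2.18 in si-circZFR that was mostly *COL1A1*.

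NC 2 stood apart from NC 1 for several of these lncRNAs. The 10 transcripts took 0.171% of all reads in NC 1, 0.0604% in NC 2, 0.207% in si-circZFR 1 and 0.263% in si-circZFR 2. Between the control libraries, *NEAT1*, *MEG3* and *MALAT1* were each lower in NC 2 by a log2 difference over 1, as were 413 (2.97%) of all genes tested. The median gene did not move (0.01), and the middle 50% of genes lay between -0.25 and 0.25. Results for the lncRNAs that rest on NC 2 are therefore also given without it. When 1 control is left out, the NC group is a single library, the spread comes from the si-circZFR pair and limma's prior, and the lone library is assumed to vary like that pair. In bulk RNA, fewer cells with a transcript and less of it per cell cannot be told apart.

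The 10 lncRNAs spanned a wide range of levels. By mean RPKM, *NEAT1* ranked 200 among the 40205 genes and *MALAT1* 913. *DANCR* (3623), *TUG1* (3931), *OIP5-AS1* (4852), *CYTOR* (5675) and *MEG3* (8351) followed. *H19* (12735), *KCNQ1OT1* (19084) and *UCA1* (23740) were not abundant in these cells, so the name of abundant lncRNAs fits only part of the list. In NC, the order of the group means was *NEAT1*, *MALAT1*, *DANCR*, *OIP5-AS1*, *TUG1*, *CYTOR*, *MEG3*, *H19*, *KCNQ1OT1* and *UCA1*, and the libraries of each of the first 5 overlapped with those of the next in order, as did *KCNQ1OT1* with *UCA1*. In si-circZFR, *TUG1* stood ahead of *DANCR* and *OIP5-AS1*, and no neighbours overlapped. RPKM divides by the gene length that the authors used, so an isoform longer or shorter than that length shifts a level. A difference between libraries is free of this only if they use the isoforms alike, which the values do not show.

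**Figure D1:**
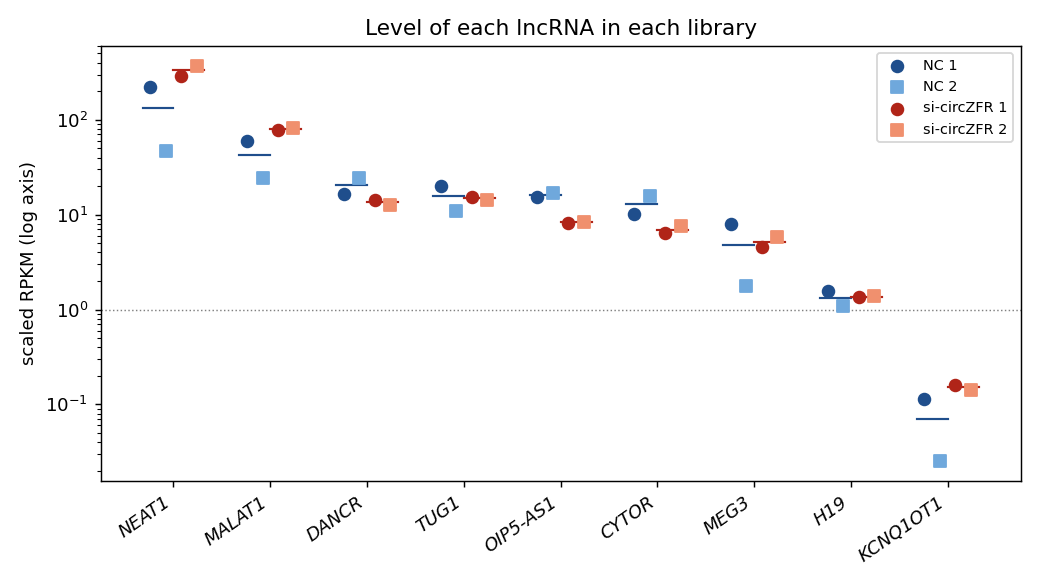
Scaled RPKM (log axis) of 9 lncRNAs in each of the 4 libraries, with short lines at the mean of each group of 2 and a dotted line at 1 RPKM; *UCA1* is left out because it had 1 read in all. NC 2 (light blue squares) lies below the other 3 libraries for *NEAT1*, *MALAT1*, *TUG1*, *MEG3*, *H19* and *KCNQ1OT1*, and above them for *DANCR*, *OIP5-AS1* and *CYTOR*.

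Between the si-circZFR and NC libraries, no lncRNA of the list was called. The count was 0 of 8 tested, where 0.0576% of all genes tested (8 of 13885) were called. Unadjusted, 4 of the 8 had p under 0.05 by limma, namely *MALAT1*, *OIP5-AS1*, *DANCR* and *CYTOR*, as had 21.7% of all genes tested (3012). Limma-voom on reads recovered from the RPKM values also called 0 of the 9 lncRNAs it tested, against 2.51% of all genes. Both si-circZFR libraries lay above both NC libraries for 2 of the 8 (*NEAT1* and *MALAT1*) and below both for 3 (*OIP5-AS1*, *DANCR* and *CYTOR*), where 28.1% of all genes lay above and 28.1% below. The median log2FC of the 8 was 0.01, as was that of all genes tested.

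Among the nuclear body RNAs, *NEAT1* had 222.1 and 47.2 scaled RPKM in the controls NC 1 and NC 2, and 291.6 and 371.7 in the silenced libraries si-circZFR 1 and si-circZFR 2. These rested on 9731, 2042, 12485 and 16997 reads. Both si-circZFR libraries were above both NC libraries, but NC 1 was 4.71-fold above NC 2, a wider gap than the 1.49-fold between NC 1 and the si-circZFR mean. The group means were 134.7 ± 124 in NC and 331.7 ± 56.6 in si-circZFR (SD, n = 2 each). The log2FC was 1.67 (SE 0.68, 95% interval -0.01 to 3.35, FDR = 0.232 by limma), and only 25 of the 13885 genes had a higher one. Without NC 2 it was 0.56 (FDR = 0.295 by limma), and without NC 1 it was 2.77 (FDR = 0.0327 by limma). *NEAT1* lies at chr11:65422774-65445540 of GRCh38 on the plus strand. The length recovered from its values, 3735 bases, is close to the short isoform and far from the 22743 bases of its longest GENCODE transcript, the isoform that builds paraspeckles, so the values do not report on that isoform separately.

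For *MALAT1* (chr11:65497640-65508073, plus strand), the scaled RPKM was 60.2 and 24.6 in the controls NC 1 and NC 2, and 78.5 and 82.4 in the silenced libraries si-circZFR 1 and si-circZFR 2, from 2485 to 8785 reads. The si-circZFR libraries were nearly alike and lay 1.34-fold above NC 1, whereas the NC libraries differed 2.44-fold. The means were 42.4 ± 25.1 in NC and 80.5 ± 2.74 in si-circZFR (SD, n = 2 each), with a log2FC of 1.04 (SE 0.40, 95% interval 0.05 to 2.03, FDR = 0.216 by limma). As with *NEAT1*, the size depended on the control library, at 0.41 without NC 2 (FDR = 0.273 by limma) and 1.66 without NC 1 (FDR = 0.0327 by limma). Between the NC libraries, only 216 genes fell further than *MALAT1* and 37 further than *NEAT1*.

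The genes most like these 2 in their pattern over the 4 libraries were sought among 5557 tested genes with a mean of at least 10 scaled RPKM, by the root mean square difference of centred log2 values. Nearest to *MALAT1* were *CPNE7* (0.076), *MIR5047* (0.098) and *OGT* (0.119). *OGT*, which encodes the O-GlcNAc transferase, had 35.4 and 16.5 scaled RPKM in the controls NC 1 and NC 2, and 44.7 and 44.8 in the silenced libraries si-circZFR 1 and si-circZFR 2. Nearest to *NEAT1* were *HERC2P9* (0.142), *AHSA2* (0.162) and *MIR138-1* (0.192). In NC 2, *HERC2P9* and *MIR138-1* had only 0.967 and 1.74 scaled RPKM, so their likeness rests in part on low values. *AHSA2* had 16.6 and 3.82 scaled RPKM in the NC libraries and 21.1 and 27.9 in the si-circZFR libraries.

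*KCNQ1OT1*, the antisense RNA that silences imprinted genes around *KCNQ1*, showed the same low NC 2 at a far lower level. Its 91670-base transcript (chr11:2597308-2700003, minus strand) collected 122 and 27 reads in the controls NC 1 and NC 2, and 170 and 159 in the silenced libraries si-circZFR 1 and si-circZFR 2. That is 0.114 and 0.0254 scaled RPKM in NC and 0.162 and 0.142 in si-circZFR, under the 1 RPKM needed for the main test. NC 1 was 4.46-fold above NC 2. Limma-voom on the recovered reads gave a log2FC of 1.48 (SE 0.51, FDR = 0.132), which rests on NC 2: without it, the si-circZFR mean was 1.34-fold the value of NC 1, with no test. *KCNQ1* lies on the opposite strand and had 2 to 11 reads per library. Whether the authors counted by strand is not given in the sources used here, so reads of overlapping genes on opposite strands cannot be assigned with certainty.

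*MEG3* (chr14:100779410-100861031, plus strand), a maternally expressed RNA of the *DLK1* locus, had 7.89 and 1.77 scaled RPKM in the controls NC 1 and NC 2, and 4.60 and 5.82 in the silenced libraries si-circZFR 1 and si-circZFR 2. The NC libraries enclosed both si-circZFR libraries, with 897 and 199 reads against 511 and 690. The log2FC of 0.32 (SE 0.52, FDR = 0.752 by limma) had a 95% interval from -0.98 to 1.61. Leaving out a control library turned its direction, to -0.53 without NC 2 and 1.16 without NC 1. *DLK1* and *RTL1*, the paternally expressed coding genes of the same locus, had 0 to 4 reads per library.

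*H19* (chr11:1995166-2004552, minus strand), the maternally expressed precursor of miR-675, was low, with 43 and 29 reads in the controls NC 1 and NC 2, and 36 and 39 in the silenced libraries si-circZFR 1 and si-circZFR 2. These gave a scaled RPKM of 1.59 and 1.09 in NC and 1.36 and 1.38 in si-circZFR. The si-circZFR libraries lay between the NC libraries, and the log2FC was 0.03 (SE 0.21, 95% interval -0.48 to 0.54, FDR = 0.947 by limma). *MIR675* had 0 reads in all 4 libraries. *IGF2*, its imprinted neighbour, had 1 to 4 reads per library.

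*TUG1* (chr22:30969245-30979395, plus strand), a long transcript found in nucleus and cytoplasm, had 20.3 and 10.8 scaled RPKM in the controls NC 1 and NC 2, and 15.3 and 14.4 in the silenced libraries si-circZFR 1 and si-circZFR 2. Again both si-circZFR libraries fell between the controls. The group means were 15.6 ± 6.67 in NC and 14.8 ± 0.65 in si-circZFR (SD, n = 2 each), with a log2FC of -0.00 (SE 0.29, 95% interval -0.72 to 0.71, FDR = 0.996 by limma). It was -0.43 without NC 2 and 0.42 without NC 1.

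*TUG1* also carries the 7-mer CTGACTC, which was looked for because earlier results of these data had pointed to it. Searched on the sense strand only, the 7-mer occurs 4 times in the 7084-base GENCODE transcript nearest to the length in the files, and 37.3% of transcripts within 10% of that length hold it at least once. The sites of *TUG1* are shown with 10 bases on each side and the 7-mer in capitals. The first lies in exon 1 at chr22:30970609-30970635 and the others in exon 2 at chr22:30976543-30976569, chr22:30977682-30977708 and chr22:30978108-30978134, on the plus strand of GRCh38.
TUG1 site 1: ctgtacttttCTGACTCtcattgacca
TUG1 site 2: tcattttacaCTGACTCagagcagctg
TUG1 site 3: gtctattttcCTGACTCagctcttgcc
TUG1 site 4: aaatttacagCTGACTCaaattgcctc

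Of the other lncRNAs, *KCNQ1OT1* holds the 7-mer 6 times, *MEG3* 4 times, *UCA1* 2 times and *H19* 1 time in the transcript nearest in length. For *MEG3* that transcript, of 12998 bases, is longer than the 9689 bases recovered from the files. The 7-mer is not in the nearest transcripts of *MALAT1*, *NEAT1*, *OIP5-AS1*, *DANCR* and *CYTOR*. No relation between these sites and the direction of the lncRNAs was tested. Among transcripts within 10% of the same length, 62.5% hold it for *MEG3*, 17.2% for *UCA1* and 17% for *H19*. For the lncRNAs without it, this share was 45.3% for *MALAT1*, 42.7% for *OIP5-AS1*, 22.1% for *NEAT1*, 7.49% for *DANCR* and 6.88% for *CYTOR*. These shares count transcripts with any site, not the number of sites. None is given for *KCNQ1OT1*, because only its own transcript lies within 10% of its 91667 bases. Its sites number 0.0655 per kilobase, against 0.308 for *MEG3*, 0.433 for *H19*, 0.565 for *TUG1* and 0.846 for *UCA1*. The sense strand of the siRNA listed for circZFR is ccaagcuggcccuuacguctt, and the 7-mer is not part of it. The guide strand would pair with matches to this sequence. Over its 19 paired bases, every transcript of the 10 lncRNAs had at least 5 mismatches to it. Matches to the guide sequence, with which the sense strand would pair, had at least 4 mismatches.

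*OIP5-AS1* behaved differently from the other long transcripts. It had 15.3 and 16.8 scaled RPKM in the controls NC 1 and NC 2, and 8.18 and 8.39 in the silenced libraries si-circZFR 1 and si-circZFR 2, from 1544, 1676, 807 and 884 reads. The libraries of each group were close together and the groups were far apart. The mean was 16.1 ± 1.07 in NC and 8.28 ± 0.148 in si-circZFR (SD, n = 2 each), or 0.516-fold. Its log2FC of -0.88 (SE 0.15, 95% interval -1.25 to -0.50, FDR = 0.082 by limma) missed both thresholds. Leaving out any one library kept it between -0.94 and -0.82. With only genes of at least 5 RPKM in 2 libraries tested, or with limma-voom, its FDR was 0.0411 and 0.029, at a log2FC of -0.88 and -0.95. The FDR was 0.242 with no filter, 0.162 without NC 2, 0.0383 without NC 1, and 0.319 and 0.504 without si-circZFR 1 and si-circZFR 2. Of the 8 tested, its value differed least between leaving out NC 1 and leaving out NC 2.

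*OIP5-AS1* lies at chr15:41283958-41322392 on the plus strand, where it overlaps *OIP5* on the opposite strand and *NUSAP1* on its own. *OIP5*, a centromere gene, had 125 and 129 reads in the controls NC 1 and NC 2, and 79 and 103 in the silenced libraries si-circZFR 1 and si-circZFR 2. Its groups did not overlap (log2FC -0.45, SE 0.17, FDR = 0.202 by limma). *NUSAP1*, a spindle gene, had 970, 1159, 896 and 819 reads in the same order (log2FC -0.32, SE 0.18, FDR = 0.347 by limma). Reads shared between these genes cannot be assigned from the values. Mature miR-7 was not analysed here.

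*DANCR* (chr4:52712325-52723623, plus strand), a short lncRNA of 855 bases known for keeping progenitor cells undifferentiated, had 16.6 and 24.6 scaled RPKM in the controls NC 1 and NC 2, and 14.3 and 12.8 in the silenced libraries si-circZFR 1 and si-circZFR 2. It rested on 134 to 244 reads. The si-circZFR libraries were below both controls, closely below NC 1 and far below NC 2. The log2FC was -0.55 (SE 0.22, 95% interval -1.09 to -0.01, FDR = 0.226 by limma), or -0.29 without NC 2 and -0.82 without NC 1. With a correction for transcript length it was -0.22, with a 95% interval from -0.62 to 0.17 that included 0.

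*CYTOR*, a cytoplasmic lncRNA of 808 bases raised in many tumours, had 96 and 148 reads in the controls NC 1 and NC 2, and 59 and 75 in the silenced libraries si-circZFR 1 and si-circZFR 2. In scaled RPKM these were 10.1 and 15.8 in NC and 6.37 and 7.58 in si-circZFR. The groups did not overlap, with a log2FC of -0.78 (SE 0.24, 95% interval -1.37 to -0.20, FDR = 0.156 by limma). It was -0.49 without NC 2 and -1.08 without NC 1, and -0.43 (95% interval -0.87 to 0.00) with a correction for transcript length. Its gene (chr2:87454781-87636740, plus strand) has a near-identical copy, *MIR4435-2HG*, listed here as *MIR4435-1HG*, and 529 of the 772 stretches of 30 bases in the *CYTOR* transcript also occur in the copy. How such reads were divided is not known. The copy had 179 and 182 reads in the controls NC 1 and NC 2, and 106 and 85 in the silenced libraries si-circZFR 1 and si-circZFR 2, a log2FC of -0.88 (SE 0.18, FDR = 0.0938 by limma), so both rows were lower in both si-circZFR libraries.

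*UCA1* (chr19:15828206-15836328, plus strand), known from bladder and other carcinomas, was at the limit of detection. It had 1 read in NC 2 and 0 reads in the other 3 libraries. A count of 0 allows up to 3 reads, or 0.109 RPKM in NC 1, 0.115 in si-circZFR 1 and 0.118 in si-circZFR 2, counting error only and for a transcript of 2310 bases. No fold is given.

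**Figure D2:**
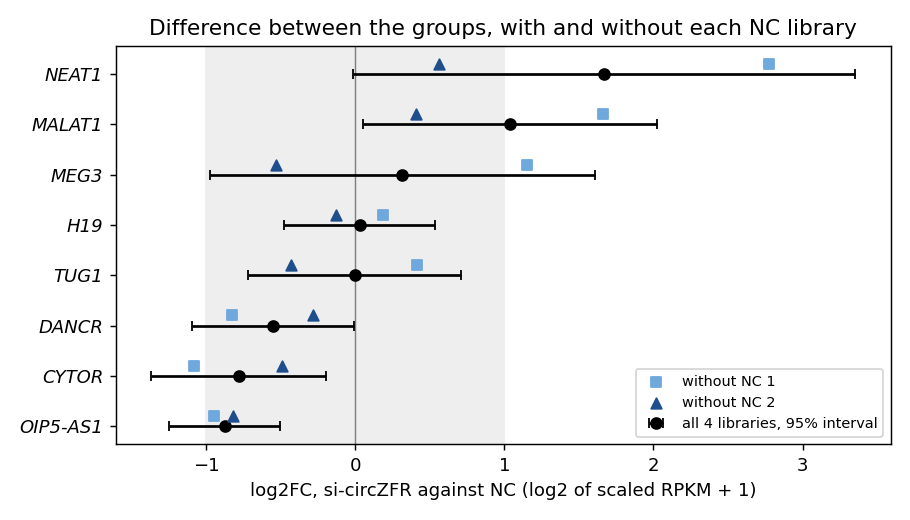
log2FC of si-circZFR against NC for the 8 lncRNAs tested, as black points with 95% intervals from limma, and the same value without NC 1 (squares) or without NC 2 (triangles); the shaded band is |log2FC| up to 1. The 3 markers lie close together for *OIP5-AS1* (-0.94 to -0.82), whereas those of *MEG3* and *TUG1* lie on both sides of 0.

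Leaving out NC 1 called 4 lncRNAs of the list (*NEAT1*, *MALAT1*, *MEG3* and *CYTOR*), where 6.93% of all genes were called. Leaving out NC 2 called 0 of the 8, and 0 genes in all, with 2546 genes at an unadjusted p under 0.05 by limma. The difference between the control libraries ran from -2.21 for *NEAT1*, -1.68 for *MEG3*, -1.25 for *MALAT1*, -0.85 for *TUG1* and -0.31 for *H19* to 0.13 for *OIP5-AS1*, 0.54 for *DANCR* and 0.60 for *CYTOR* (log2, NC 2 minus NC 1). Between the si-circZFR libraries, the same 8 differed by -0.15 to 0.35. The difference between the NC libraries moved with transcript length over all genes. Its median was 0.18 for 4945 genes under 2000 bases, -0.00 for 6367 genes of 2000 to 5000 bases and -0.20 for 2573 genes of 5000 bases or more, and the median log2FC in these bins was -0.18, 0.04 and 0.14. *MALAT1* (8708 bases) and *OIP5-AS1* (8609 bases) are nearly equal in length but not in this difference. Of the 838 genes within 20% of the *MALAT1* length, with a median of -0.25 between the NC libraries, 7 were as low in NC 2 as *MALAT1*, itself included, and 3 had a log2FC as low as *OIP5-AS1*, itself included. After a smooth correction for transcript length in each library, the log2FC was 1.62 for *NEAT1*, 0.89 for *MALAT1* and -1.02 for *OIP5-AS1* (FDR = 0.0763 by limma), each close to its value without the correction, whereas it shrank to -0.22 for *DANCR* and -0.43 for *CYTOR*. None of the 8 was called after it.

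**Figure D3:**
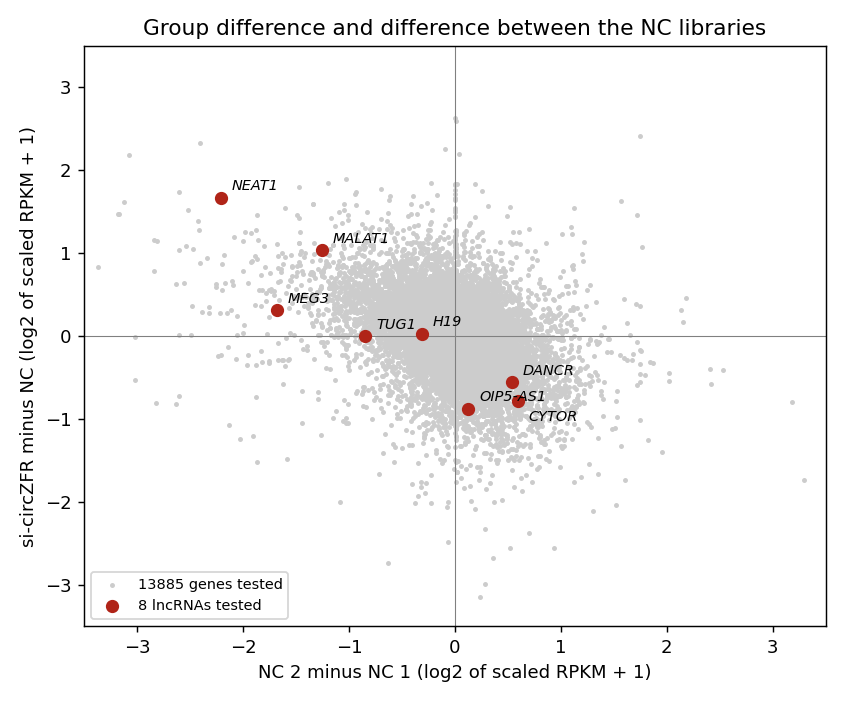
Difference between the control libraries (x axis, NC 2 minus NC 1, log2) and between the groups (y axis, si-circZFR minus NC, log2) for 13885 tested genes in grey, of which 3 lie outside the axes, and the 8 lncRNAs in red. Both axes use NC 2, so a low NC 2 moves a gene to the left and up; *NEAT1* and *MALAT1* lie at the upper left, and *OIP5-AS1* lies low with an x value of 0.13.

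Over the wider class, 272 of 2408 listed genes that RefSeq types as lncRNA were tested. Their median log2FC was 0.22 and their median difference between the NC libraries was -0.18, against 0.01 for both over all genes. Of these 272, none was called by limma, where 0.0576% of all genes tested were. An unadjusted p under 0.05 by limma was found for 72 (26.5%), against 21.7% of all genes. Both si-circZFR libraries were above both NC libraries for 104 (38.2%) and below for 44 (16.2%), against 28.1% each over all genes. Without NC 2, the median log2FC of the class was 0.09, against -0.01 for all genes. Limma-voom called 2 of the 379 it tested, where it called 371 of 14791 genes (2.51%) in all. These were *C5orf55* (log2FC 1.84) and *STX16-NPEPL1* (log2FC 1.03), both higher and named after their values were seen. *C5orf55* rested on 19 and 17 reads in NC and 56 and 79 in si-circZFR. The symbol *STX16-NPEPL1* joins those of *STX16* and *NPEPL1*, and reads shared with these genes cannot be assigned from the values.

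A list of 55 other lncRNAs and structural RNAs, many of them hosts of small nucleolar RNAs, had 28 tested members. Of these, 0 were called, where 0.0576% of all genes tested were. An unadjusted p under 0.05 by limma was found for 11 (39.3%), against 21.7% of all genes. For 13 of the 28 (46.4%), both si-circZFR libraries lay lower than both NC libraries, and for 4 (14.3%) higher. Over all genes, each share was 28.1%. The median log2FC was -0.27, against 0.01 over all genes tested and -0.18 over those under 2000 bases. The list was not compared with genes of like length. *RMRP*, the RNA of an RNase that trims ribosomal and mitochondrial RNA, had 86 and 81 reads in the controls NC 1 and NC 2, and 21 and 7 in the silenced libraries si-circZFR 1 and si-circZFR 2. Its log2FC of -2.48 (SE 0.42, FDR = 0.082 by limma) was outside the FDR threshold, but limma-voom called it (log2FC -2.77, FDR = 0.0287). *SNHG16* had 13.6 and 12.8 scaled RPKM in the NC libraries and 5.42 and 5.43 in the si-circZFR libraries (log2FC -1.15, SE 0.15, FDR = 0.0728 by limma). *RN7SK*, which holds back transcription elongation, rested on 9 and 10 reads against 2 and 2 (log2FC -1.55, SE 0.18, FDR = 0.0657 by limma). *RMRP* was the only gene of all the lists below and of this one that limma-voom called, where it called 2.51% of all genes. *SNHG5* differed more between the controls (46.4 and 120.2 scaled RPKM) than the lower control did from the si-circZFR libraries (28.9 and 33.8), and its log2FC of -1.23 was -0.56 without NC 2.

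No gene for a partner protein of these lncRNAs was called, where 0.0576% of all genes tested (8 of 13885) were. At that share, 0 calls in lists as short as those that follow do not set them apart from other genes. In the lists that follow, the share with an unadjusted p under 0.05 by limma was at or below the 21.7% of all genes, except for the RNA-stability partners (28.6%). Of 16 paraspeckle proteins tested, none was called and 3 had an unadjusted p under 0.05 by limma, with a median log2FC of 0.04. *SFPQ*, a core paraspeckle protein, had 16.6 and 15.5 scaled RPKM in NC and 20.2 and 24.3 in si-circZFR (log2FC 0.44, SE 0.17, FDR = 0.208 by limma), and its partner *NONO* had a log2FC of -0.15. *TAF15* and *HNRNPH3* had log2FC values of 0.58 and 0.52, with FDR of 0.186 and 0.178 by limma. Of 18 nuclear speckle proteins, 2 had an unadjusted p under 0.05 by limma and none was called, with a median log2FC of 0.10. *SRRM2*, a scaffold of nuclear speckles, had 142.4 and 64.8 scaled RPKM in the controls NC 1 and NC 2, and 110.4 and 92.8 in the silenced libraries si-circZFR 1 and si-circZFR 2, so it shared the low NC 2 of *MALAT1* and its groups overlapped. The splicing factor *SRSF7* had a log2FC of -0.54 (FDR = 0.149 by limma) and the kinase *CLK1*, which releases splicing factors from speckles, one of 0.47 (FDR = 0.219 by limma).

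Among 12 tested genes of RNA end processing, which include the RNase P proteins and *ELAC2* that cut the tRNA-like end off *MALAT1* and *NEAT1*, none was called and 2 had an unadjusted p under 0.05 by limma. These were *POP7* (log2FC -0.55, FDR = 0.143 by limma) and *RPP30* (log2FC -0.53, FDR = 0.157 by limma), both lower in both si-circZFR libraries, and *ELAC2* had a log2FC of -0.29. None of 11 chromatin partners, with the Polycomb enzyme *EZH2* at a log2FC of 0.26, was called or had an unadjusted p under 0.05 by limma. Of 7 RNA-stability partners, none was called and 2 had an unadjusted p under 0.05 by limma. *DROSHA*, which cuts miRNA precursors, had 10.8 and 7.87 scaled RPKM in NC and 16.8 and 14.1 in si-circZFR (log2FC 0.68, SE 0.20, FDR = 0.154 by limma), and *ELAVL1*, the RNA-binding protein HuR, had a log2FC of -0.43 (FDR = 0.216 by limma).

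Of 11 tested coding neighbours and imprinted partners of the lncRNAs, none was called and 2 had an unadjusted p under 0.05 by limma, *LTBP3* and *OIP5*. *LTBP3*, on chromosome 11 near *MALAT1*, had 22.9 and 18.9 scaled RPKM in NC and 28.8 and 31.0 in si-circZFR (log2FC 0.50, SE 0.17, FDR = 0.178 by limma). Of the small RNAs hosted by or near the lncRNAs, 2 were tested, on at most 9 reads per library, and neither was called nor had an unadjusted p under 0.05 by limma. *MIR612*, inside *NEAT1*, had 9 and 2 reads in the controls NC 1 and NC 2, and 8 and 2 in the silenced libraries si-circZFR 1 and si-circZFR 2.

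**Figure D4:**
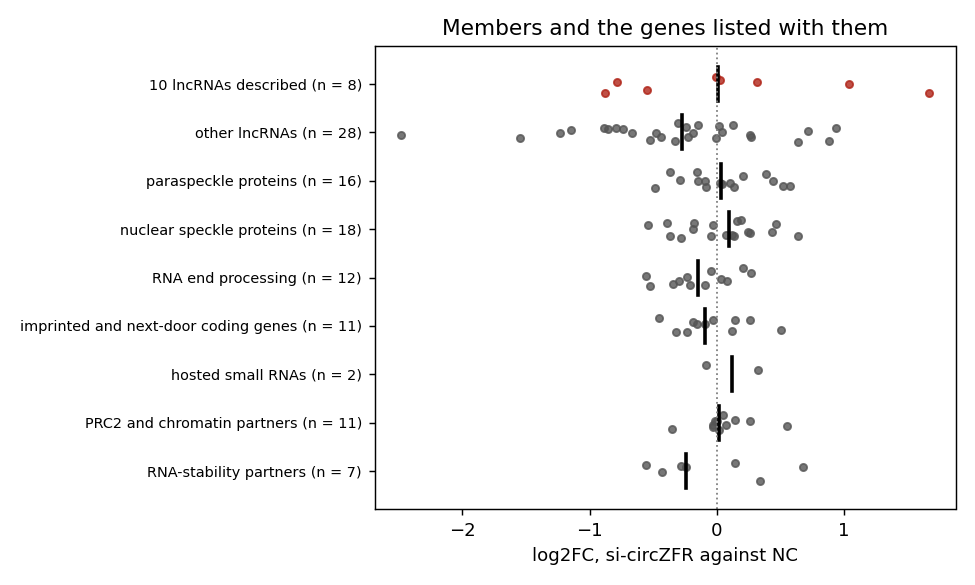
log2FC of si-circZFR against NC for the tested genes of each list (points, spread vertically at random), with a black bar at the median and a dotted line at the median of all genes tested. The 10 lncRNAs (8 tested, red) run from -0.88 for *OIP5-AS1* to 1.67 for *NEAT1*, and the lists of partner proteins have medians between -0.24 and 0.10.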

How the data were processed

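RNA was sequenced from 4 libraries, 2 NC and 2 si-circZFR, grouped by the labels. The authors deposited 1 RPKM value per gene and library. Per the labels, GRCh37 was used, and per the article hg38. The article names SVA for batches and edgeR for testing, but the aligner, the counter and the annotation are not given in the sources used here. Limma on log2 values was the test planned for RPKM values, and a count test was foreseen only for deposited counts. Reads were recovered as the whole numbers behind the RPKM values (24282 of 24289 genes above 0, tolerance 0.02). RPKM values were scaled by trimmed means (30% of ratios and 5% of levels trimmed), with factors from 0.904 to 1.11, and filtered at 1 RPKM in at least 2 libraries. Log2 values with a pseudocount of 1 were fitted by limma 3.58.1 in R 4.3.3 in a two-sided test whose prior variance followed the mean level (prior degrees of freedom 3.81 at the median). The fit was also run on simulated reads, in which the NC libraries shared the same expected level per gene and no trend with length was built in. That run therefore does not cover the low NC 2 or the length trend seen here. The 10 lncRNAs and the gene lists were chosen with earlier results of these data known. Of the lists, genes were named by the smallest p (up to 3) or highest level (up to 3). Alternatives covered scaling, filter, pseudocount, replicate block, transcript length, genes kept, prior variance, limma-voom and each library left out. Positions and transcripts came from GENCODE v44 on GRCh38 by gene symbol. Python 3.11.15, numpy 2.4.6, pandas 2.3.3 and matplotlib 3.10.9 were used. Results for some of the listed genes are not reported here.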

Additional observations from a re-analysis of the deposited data

How the results depend on the processing

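With 2 libraries a group, each spread rests on 1 difference, and *H19*, *UCA1*, *CYTOR* and *DANCR* are also limited by few reads. No lncRNA of the list was called under any setting other than leaving out NC 1, which called 4. Leaving out 1 library moved the genes called in all between 0 and 937, the lncRNAs called between 0 and 4 and the other list genes called between 0 and 8. It moved the log2FC from 0.41 to 1.66 for *MALAT1*, 0.56 to 2.77 for *NEAT1*, -0.53 to 1.16 for *MEG3*, -0.43 to 0.42 for *TUG1*, -0.13 to 0.18 for *H19* and -1.08 to -0.49 for *CYTOR*. A correction for transcript length reduced *DANCR* from -0.55 to -0.22 and *CYTOR* from -0.78 to -0.43. The log2FC of *TUG1*, near 0, also changed sign with no scaling (0.16), upper quartile scaling (0.041), a pseudocount of 0.1 (0.00022) and limma-voom (0.00082). No scaling moved the median of all genes to 0.15 and the si-circZFR levels of *MALAT1*, *TUG1*, *OIP5-AS1* and *H19* to 85.6, 15.8, 8.81 and 1.46. Against 8 genes called in all, 0 were called with no filter (3676 at an unadjusted p under 0.05 by limma), 175 at 5 RPKM, 200 at 1 CPM, 2 and 5 with pseudocounts of 0.1 and 0.5, 14 with a length correction, 1 without a trend, 13 without ribosomal protein and mitochondrial DNA genes and 371 by limma-voom. Other list genes called numbered 2 at 5 RPKM, 2 at 1 CPM and 1 by limma-voom. With the replicate number as a block, 63 genes, 0 of the 10 lncRNAs and 1 other list gene were called. The numbers do not pair the samples by any label, and with 2 pairs the deviations of same-numbered libraries correlated at 0.0694. The cause of these changes was not tested.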
